A study of Mus musculus with 15 samples.

Results

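Constitutive proteasome genes, the genes for the standing subunits of the cell's main protein-degrading machine, were followed in foam cells of mice fed chow or a western-type diet. Members were the genes whose annotated symbol joins Psma, Psmb, Psmc or Psmd to a number, without Psmb8, Psmb9 and Psmb10, which encode the interferon-inducible immunoproteasome subunits. The rule found 36 genes of the 18193 measured. They were covered by 74 probe sets that name 1 gene only, and the probe set with the highest mean stood for its gene. Of the 36 genes, 33 lay high enough to be tested and 3 (Psmb7, Psmc5 and Psmd7) did not.

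The samples came from C57BL/6 mice of genotype ApoE-/-, so every group, the chow group included, lacked apolipoprotein E. Foam cells are macrophages that have taken up lipid in the artery wall. They were collected by laser from sections of the aortic sinus, and their amplified RNA was hybridised to 15 Affymetrix mouse arrays, 5 a group. CHOW mice ate regular chow for 22 weeks. The 2w-WD mice ate chow for 20 weeks and then a western diet for 2 weeks per the sample labels, whereas the series text places that diet between weeks 22 and 24, so their age is uncertain. The 14w-WD mice ate chow for 8 weeks and the western diet for 14 weeks. No label says which animal an array came from, or whether animals were pooled. The p-values weigh a difference of group means only against the spread between arrays within groups, estimated over all 3 groups together. Part of that spread may therefore be technical.

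The proteasome takes apart proteins tagged with ubiquitin chains. Its core particle is a barrel of stacked rings, in which alpha subunits gate the entrance and certain beta subunits cut the protein. A regulatory particle caps the barrel: its base holds ATPases that unfold and thread the protein, and its lid removes the ubiquitin chain. In macrophages the proteasome clears damaged proteins, supplies peptides for antigen presentation and takes part in NF-kB signalling. Transcription of its genes is known to be raised by the factor encoded by Nfe2l1 when proteasome capacity falls short.

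All levels below are log2(intensity + 16), and a change is a difference of such levels, which understates the change of dim genes. A gene was tested if its mean over the 15 arrays reached the median of all probe sets, a log2 level of 5.66 or an intensity of 34.6, and it was called changed at an adjusted p under 0.05 over all 11925 genes tested. Arrays have no counting depth, and 5 arrays a group set the precision.

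The comparison of 14w-WD with 2w-WD sets prolonged feeding of the western diet against brief feeding. In it 7 of the 33 tested proteasome genes rose and 0 fell (limma with Benjamini-Hochberg adjustment). They were Psmd10, Psmc6, Psma7, Psmd1, Psmd9, Psmb5 and Psmd2, with log2 changes between 1.02 and 1.70. Called members made up 21.2% of the 33, beside 10.1% of all genes tested that rose. Over all genes 1.15% fell. The median change was 0.86 over the proteasome genes and 0.23 over all genes, and 28 of the 33 members (84.8%) lay above 0, beside 65.2% of all genes. Below 0 lay 5 members, beside 34.8% of all genes. An unadjusted p under 0.05 was reached by 20 members (60.6%), beside 32.1% of all genes. Under quantile normalization the median of all genes was 0.01, that of the proteasome genes 0.55, and 25 members lay above 0. The share of all genes above 0 was not computed under that normalization. That scaling left 4 members called, beside 5.75% of all genes that rose, and it moved the share of rises among all called genes to 69.3%, against 89.8% without it. In bulk samples like these, fewer cells of a type and less RNA per cell cannot be told apart.

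The count of called members changed when single arrays were left out, and so did the share of all genes that rose. Without 2w-WD replicate 1 it was 16, beside 24.8% of all genes. Without CHOW replicate 1 or 14w-WD replicate 4 it was 11, beside 13.3% and 12.2%. Without 2w-WD replicate 2, 2w-WD replicate 4 or 14w-WD replicate 3 it was 2, beside 2.08%, 2.09% and 1.83%, and without 14w-WD replicate 1 it was 1, beside 1.34%. The counts of members and of all genes moved the same way in each of these fits. Psmd10 passed whichever single array was left out. With each array's percentage of bright probe sets (intensity above 100) as a covariate, an alternative chosen after seeing the data, 0 members and 0 of all genes passed, and the members' median change was 0.28. That percentage differs between the groups and counts the genes that rose, so this value does not show what the calls depend on.

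**Figure D1:**
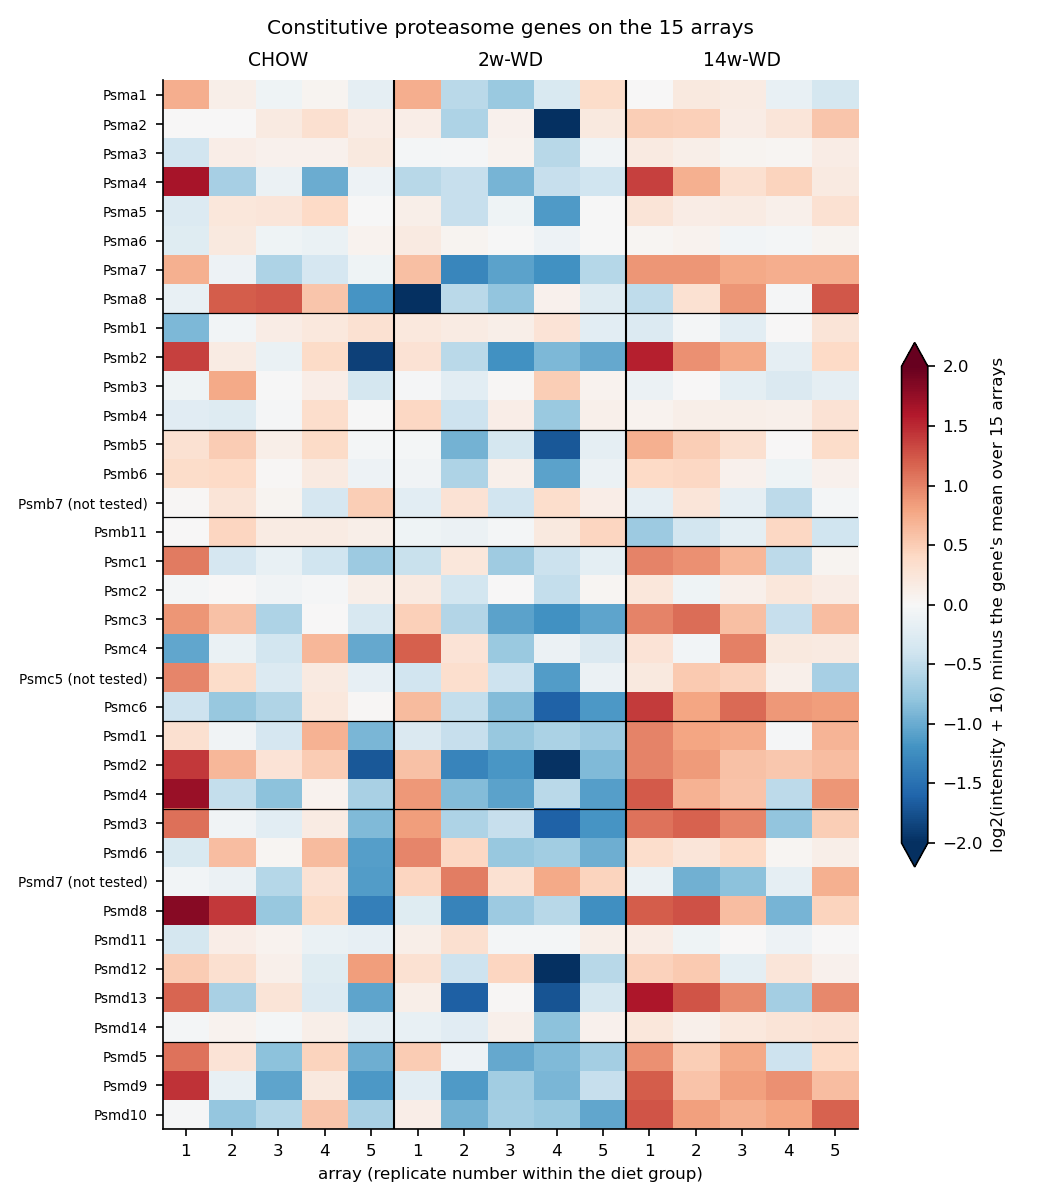
Heat map of the 36 constitutive proteasome genes (vertical, grouped by role: alpha ring, beta ring, catalytic beta subunits, thymus form, base ATPases, base scaffold and ubiquitin receptor, lid, assembly chaperones) on the 15 arrays (horizontal, 5 for each of CHOW, 2w-WD and 14w-WD). Colour gives log2(intensity + 16) minus the gene's mean, in log2 units, cut off at the ends of the scale. Most members were below their mean on 2w-WD replicates 2 to 5 and on CHOW replicates 3 and 5. On the other arrays more members lay above than below it, most clearly on 14w-WD replicates 1, 2, 3 and 5.

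Psmd10, which encodes gankyrin, a chaperone that helps to assemble the base of the regulatory particle, had the smallest p of the members. Its levels were 7.72, 7.29, 7.17, 7.26 and 7.64 in 14w-WD, against 6.59, 5.52, 5.78, 5.72 and 5.42 in 2w-WD. Every 14w-WD array lay above every 2w-WD array. The change was 1.61 (SE 0.27, adjusted p = 0.00738). Psmd9, another assembly chaperone of the base, had 8.56, 7.91, 8.17, 8.26 and 7.97 in 14w-WD, against 7.14, 6.21, 6.66, 6.44 and 6.88 in 2w-WD. Again the groups did not overlap, and the change was 1.51 (SE 0.39, adjusted p = 0.0269). The other probe sets of Psmd9 did not pass when every probe set was fitted on its own. The probe set nearest in level (mean 7.33, beside 7.35) changed by -0.03 (adjusted p = 0.978), and a dimmer one by 0.32 (adjusted p = 0.240). With the mean of all its probe sets, Psmd9 changed by 0.60 and did not pass (adjusted p = 0.0776). Psmd5, the third assembly chaperone with a Psmd symbol, had a change of 0.86 (SE 0.42) and did not pass (adjusted p = 0.166).

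Psmc6 encodes an ATPase of the base ring. It had 9.18, 8.58, 8.92, 8.65 and 8.62 in 14w-WD, against 8.42, 7.30, 6.92, 6.16 and 6.64 in 2w-WD. No 2w-WD array reached the lowest 14w-WD array, and 2w-WD replicate 1 came closest. The change of 1.70 (SE 0.36, adjusted p = 0.0149) was the largest of the tested members. The other tested ATPase genes, Psmc1, Psmc2, Psmc3 and Psmc4, had changes between 0.25 and 1.26, and none of these 4 passed.

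The base also holds Psmd1 and Psmd2, large scaffold subunits, of which Psmd2 binds the proteins that shuttle tagged cargo to the proteasome. Psmd1 had 8.38, 8.17, 8.13, 7.37 and 8.06 in 14w-WD, against 7.09, 6.92, 6.62, 6.75 and 6.66 in 2w-WD. These groups did not overlap, although 14w-WD replicate 4 stood close to the 2w-WD range, and the change was 1.21 (SE 0.29, adjusted p = 0.0211). Psmd2 had 10.51, 10.37, 10.10, 10.06 and 10.13 in 14w-WD, against 10.10, 8.20, 8.34, 7.53 and 8.63 in 2w-WD. Here 2w-WD replicate 1 lay inside the 14w-WD range and the other 2w-WD arrays far below it. The change was 1.67 (SE 0.51, adjusted p = 0.0440). Psmd4, the ubiquitin receptor, stood at 1.11 (SE 0.48) and missed the threshold.

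Among the 8 alpha-ring genes only Psma7 passed. Its levels were 8.77, 8.77, 8.65, 8.61 and 8.61 in 14w-WD, against 8.50, 6.58, 6.81, 6.68 and 7.32 in 2w-WD. The 14w-WD arrays were tightly grouped (SD 0.08, n = 5) and the 2w-WD arrays widely spread (SD 0.79, n = 5), without overlap. Its change was 1.505 (SE 0.35, adjusted p = 0.0196). Psma4 also had 14w-WD arrays above all 2w-WD arrays, with a change of 1.16 (SE 0.38, adjusted p = 0.0540) that did not pass. The other alpha-ring genes ranged from -0.01 for Psma6 to 1.09 for Psma8, the testis form of an alpha subunit. A dimmer probe set of Psma6 changed by 1.25 (SE 0.41, adjusted p = 0.0584) when every probe set was fitted on its own.

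The catalytic beta subunits are Psmb5, Psmb6 and Psmb7, which carry the chymotrypsin-like, caspase-like and trypsin-like activities. Psmb5 had 11.14, 10.92, 10.75, 10.44 and 10.79 in 14w-WD, against 10.38, 9.48, 10.08, 8.73 and 10.24 in 2w-WD. The groups did not overlap, by the narrow gap between 14w-WD replicate 4 and 2w-WD replicate 1, and the change was 1.02 (SE 0.30, adjusted p = 0.0393). Psmb6 had 12.52, 12.53, 12.20, 12.03 and 12.20 in 14w-WD, against 12.04, 11.50, 12.22, 11.04 and 12.004 in 2w-WD. Its groups overlapped, and the change of 0.53 (SE 0.21, adjusted p = 0.0965) did not pass. Psmb7 stayed near the filter level in every group and was not tested. It had 5.55, 5.79, 5.59, 5.20 and 6.01 in CHOW, 5.32, 5.82, 5.14, 5.88 and 5.66 in 2w-WD, and 5.34, 5.77, 5.35, 5.01 and 5.49 in 14w-WD, with overlap between all groups.

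**Figure D2:**
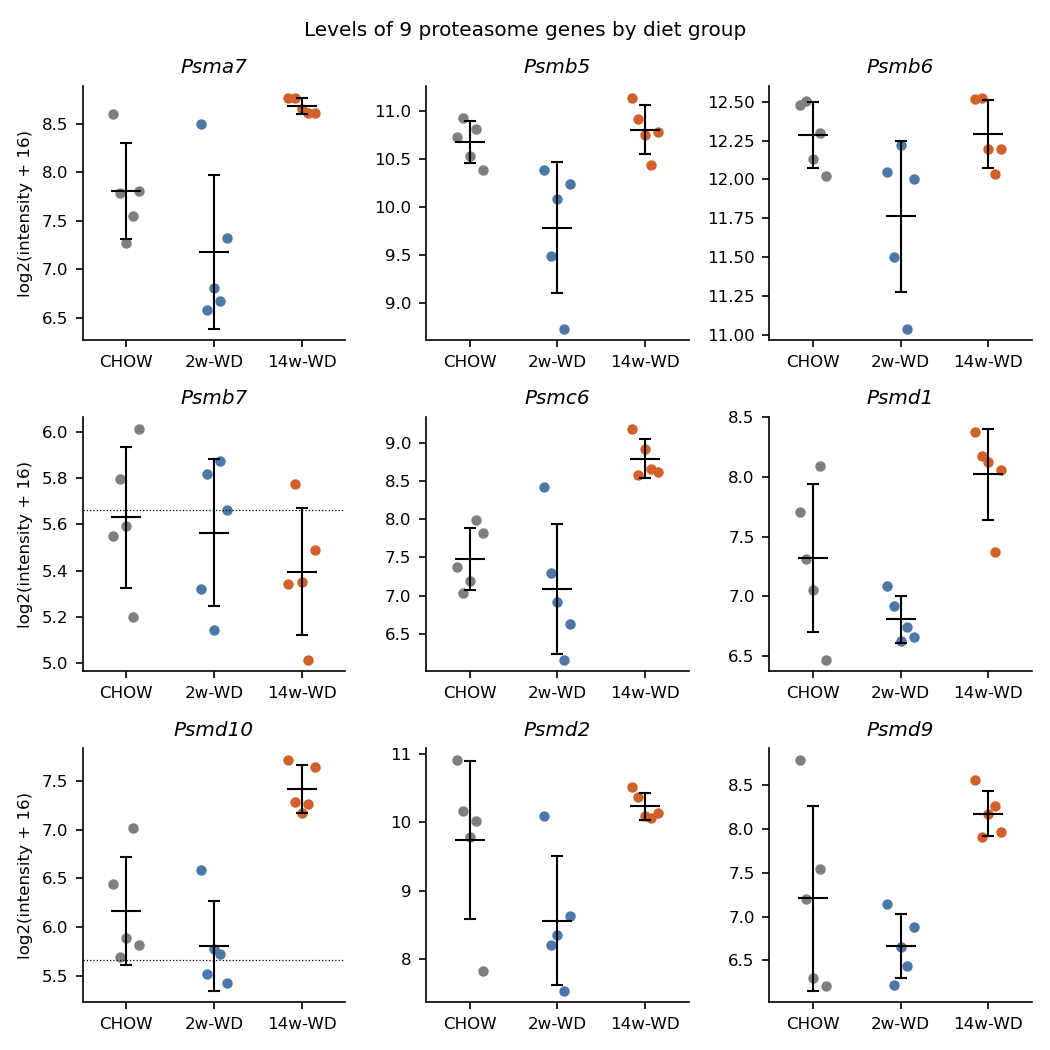
Levels of 9 proteasome genes, as log2(intensity + 16) on the vertical axis, in CHOW, 2w-WD and 14w-WD. Points are arrays (5 a group), bars the mean and SD, and the dotted line the filter level of 5.66 where it falls within a panel. For Psmd10, Psmd9, Psmc6, Psmd1, Psma7 and Psmb5 every 14w-WD point lies above every 2w-WD point, while the Psmb7 groups overlap near the filter level.

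None of the 4 other beta-ring genes (Psmb1 to Psmb4) and none of the 7 tested lid genes passed. The lid genes ranged from -0.10 for Psmd11 to 1.54 for Psmd13 (SE 0.49, adjusted p = 0.0521). Psmd14, the deubiquitinase of the lid, had a change of 0.42 (SE 0.17, adjusted p = 0.0994). Psmb11, the form found in thymic cortex, had -0.33 (SE 0.20). By particle, 2 of 15 tested core genes and 5 of 18 tested genes of the regulatory particle and its assembly rose, with median changes of 0.51 and 1.15, beside 10.1% and 0.23 over all genes. The share of core genes that rose was thus near that of all genes. Whether the particles differ was not tested. Groups did not overlap for 7 members, 14w-WD higher in each, or 21.2% of the 33, beside 7.06% of all genes. For 0 members, and 1.57% of all genes, did every 14w-WD array lie below. The 7 were the called genes without Psmd2 and with Psma4.

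**Figure D3:**
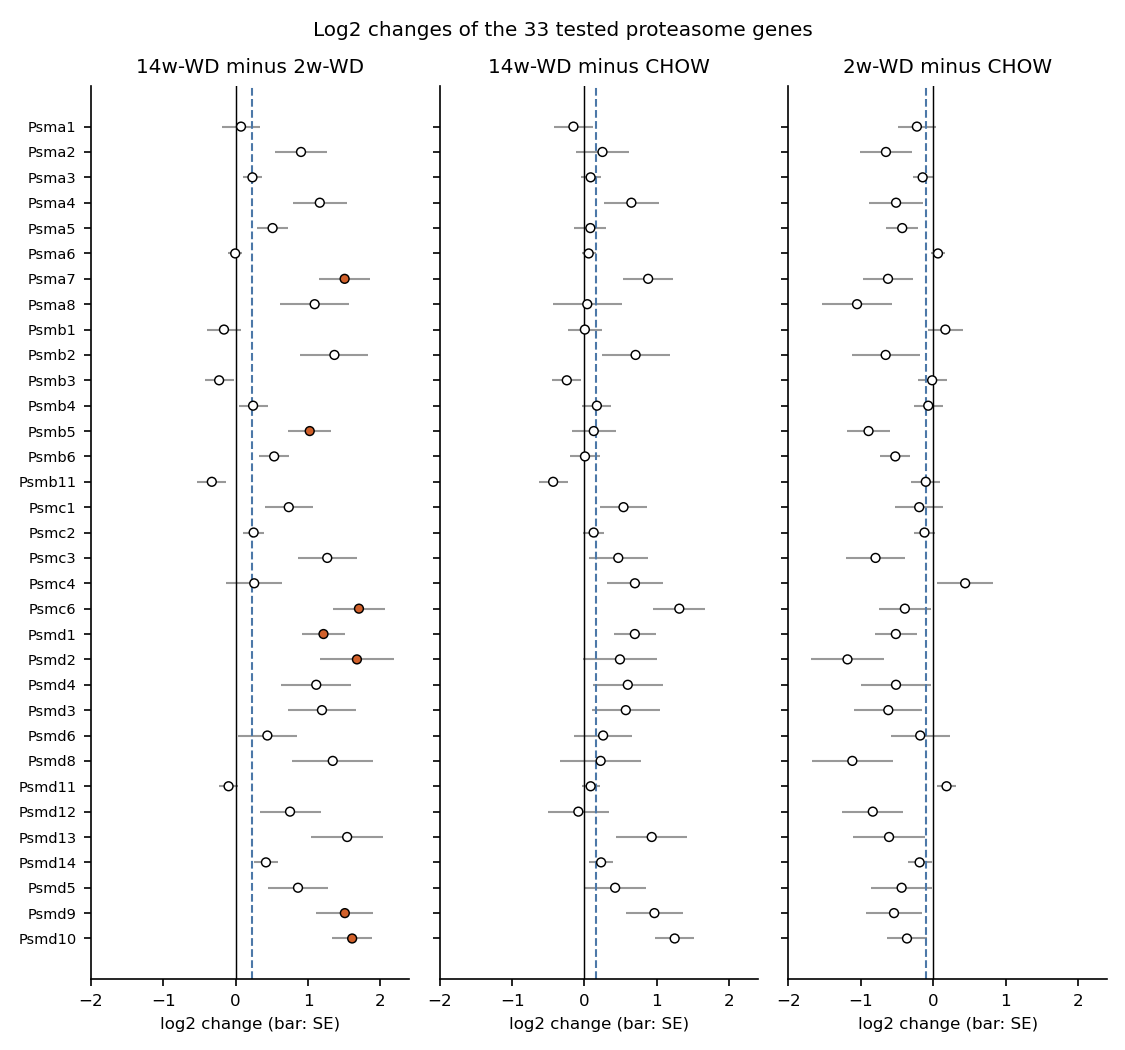
Log2 changes of the 33 tested proteasome genes (horizontal axis, log2 units) in 14w-WD minus 2w-WD, 14w-WD minus CHOW and 2w-WD minus CHOW, with genes in the order of their roles. Points are limma estimates, bars their SE, filled points have an adjusted p under 0.05, and the dashed line is the median change of all genes tested. Filled points occur in the first comparison alone, 7 of 33.

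Promoters are shown for members that rose together, to let their letters be compared. They are the 250 bases before the annotated start, read 5' to 3' on the gene's strand, from the RefSeq promoter table of build GRCm38.p6, for the called members whose window lay outside the gene and held a searched motif. Capitals mark the core of the antioxidant response element that binds the Nfe2l1 and Nfe2l2 factors (TGACNNNGC) and the CCAAT box (CCAAT), each on either strand. The windows are chr14:54617996-54618245 for Psmb5 (minus strand), chr5:123227940-123228189 for Psmd9 (plus strand), chrX:140956712-140956961 for Psmd10 (minus strand) and chr2:180042465-180042714 for Psma7 (minus strand).
Psmb5: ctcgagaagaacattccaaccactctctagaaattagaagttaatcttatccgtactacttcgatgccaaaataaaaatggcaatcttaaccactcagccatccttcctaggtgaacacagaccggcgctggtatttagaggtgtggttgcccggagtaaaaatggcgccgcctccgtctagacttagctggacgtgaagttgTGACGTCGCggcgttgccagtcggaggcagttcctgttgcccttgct
Psmd9: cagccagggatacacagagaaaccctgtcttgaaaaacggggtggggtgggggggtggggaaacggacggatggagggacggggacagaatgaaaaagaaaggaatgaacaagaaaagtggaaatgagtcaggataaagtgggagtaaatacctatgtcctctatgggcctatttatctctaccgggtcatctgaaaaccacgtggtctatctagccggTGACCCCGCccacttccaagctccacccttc
Psmd10: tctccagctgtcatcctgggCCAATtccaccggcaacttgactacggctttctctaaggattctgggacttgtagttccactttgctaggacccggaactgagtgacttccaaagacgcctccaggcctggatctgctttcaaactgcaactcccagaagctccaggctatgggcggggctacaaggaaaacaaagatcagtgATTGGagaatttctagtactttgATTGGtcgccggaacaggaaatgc
Psma7: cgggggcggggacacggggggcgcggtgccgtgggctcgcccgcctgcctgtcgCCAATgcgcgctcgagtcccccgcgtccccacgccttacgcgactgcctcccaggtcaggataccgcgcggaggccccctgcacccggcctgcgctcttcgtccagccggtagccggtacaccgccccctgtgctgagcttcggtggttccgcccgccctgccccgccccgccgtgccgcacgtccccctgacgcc
Psmb5 and Psmd9 held 1 response element core each, at positions -47 and -31 from the start, and Psmd10 held 3 CCAAT boxes.

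A promoter was listed for 29 of the 36 members. The response element core occurred before 5 of them (17.2%: Psmb5, Psmb6, Psmc6, Psmd12 and Psmd9), beside 11.5% of the 27025 genes with a promoter, and before 3 of the 7 called members. The CCAAT box occurred before 41.4% of members and 37.5% of all genes. A core motif of ETS factors (CCGGAAG, either strand) occurred in the windows of 9 members (31.0%) and 7.83% of all genes. Among the 9 was Psmd2, whose listed window lay wholly inside the annotated gene and not before it. Member windows were richer in CG dinucleotides (median 15.0, against 6.0 over all genes), and the ETS letters contain one. A match is a description of letters and not of binding.

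The genes with more than 1 probe set gave changes that depended on the probe set. Of 55 member probe sets at or above the filter level, 13 rose in 14w-WD against 2w-WD and 0 fell, when every probe set was fitted on its own (23.6%, beside 9.81% of 22518 probe sets). These 13 belonged to 11 genes, the called 7 with Psma1, Psmb1, Psmb4 and Psmc2. In each of these 4 further genes a dimmer probe set rose, while the brighter one that represents the gene did not pass. Of 16 genes with several such probe sets, 7 had probe sets with changes of opposite sign. The representing probe sets of Psmb4 and Psmc2 have names ending in _x_at. An alternative fit, chosen after seeing the data, used a probe set without an x or s suffix where the gene had one. In that fit 10 members rose, beside 11.2% of all genes. The median change was 1.09 over members and 0.23 over all genes.

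For Psmb4, a beta-ring subunit that helps the core to assemble, the dimmer probe set had 10.24, 10.03, 9.91, 8.66 and 9.74 in 14w-WD, against 9.0, 6.81, 7.75, 5.92 and 7.40 in 2w-WD. All but 1 of the 14w-WD arrays lay above every 2w-WD array. The change was 2.34 (SE 0.49, adjusted p = 0.0146). The representing probe set had 12.14, 12.19, 12.20, 12.18 and 12.36 in 14w-WD, against 12.48, 11.67, 12.21, 11.33 and 12.18 in 2w-WD. Its 14w-WD range lay inside its 2w-WD range, with a change of 0.24 (SE 0.20, adjusted p = 0.416).

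Psmb1 encodes another beta-ring subunit. Its dimmer probe set had 7.96, 7.58, 7.91, 6.46 and 7.40 in 14w-WD, against 5.09, 5.24, 5.10, 5.01 and 4.94 in 2w-WD, where every array was under the filter level. The change was 2.39 (SE 0.45, adjusted p = 0.0120). Its representing probe set averaged 7.08 in 14w-WD and 7.24 in 2w-WD (SD 0.21 and 0.19, n = 5 each), a change of -0.16 (SE 0.24, adjusted p = 0.669). For Psma1 the dimmer probe set changed by 1.44 (SE 0.33, adjusted p = 0.0195) and the representing one by 0.07. For the ATPase gene Psmc2 the dimmer probe set averaged 7.74 in 14w-WD and 6.24 in 2w-WD (SE of the change 0.46, adjusted p = 0.0461), and the representing one changed by 0.25. In 14w-WD against CHOW 0 of the 55 member probe sets passed, beside 0.00444% of all probe sets that rose, and 11 had an unadjusted p under 0.05. In 2w-WD against CHOW 0 passed, beside 0.0%, and 7 had an unadjusted p under 0.05. The shares of all probe sets with an unadjusted p under 0.05 were not computed. Over all genes, with 1 probe set each, these shares were 15.9% and 9.76%. The counts of 11 and 7 are therefore not read as a result about the members.

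**Figure D4:**
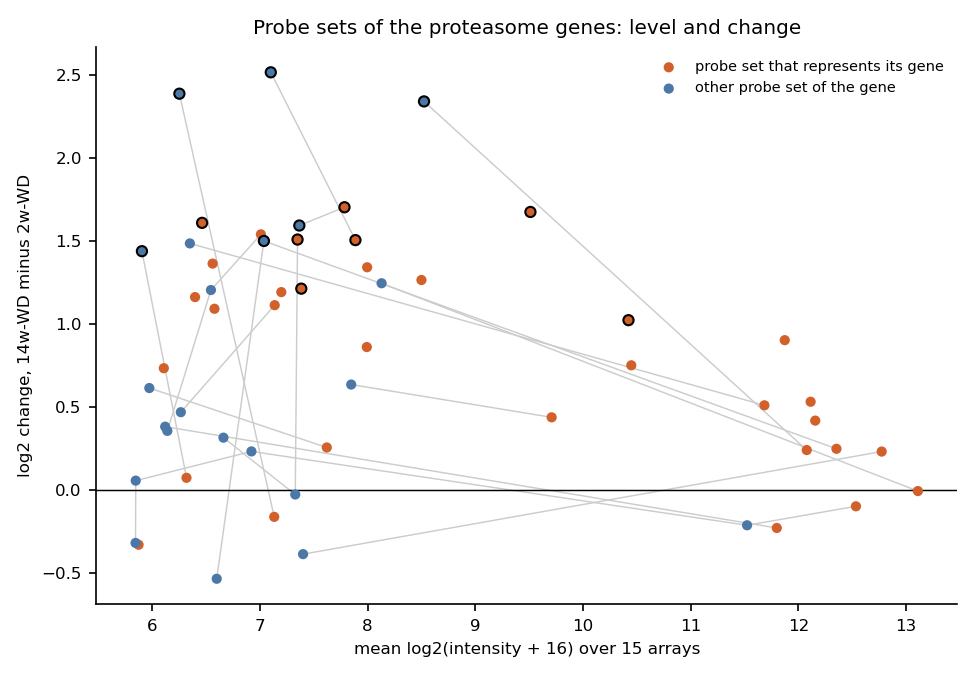
Change in 14w-WD minus 2w-WD (vertical axis, log2 units) against mean log2(intensity + 16) over 15 arrays (horizontal axis) for the 55 member probe sets at or above the filter level. Grey lines join probe sets of a gene, and points with a black edge have an adjusted p under 0.05 over 22518 probe sets. The 13 points with a black edge all lie below a mean of 11, and the probe sets above it reach at most 0.90.

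Across genes, too, the called members were among the dimmer ones. Split at a mean level of 11, a value chosen after the levels were seen, 10 members lay above and 23 at or below. Of the 10 brighter ones 0 passed, with a median change of 0.24 and a range from -0.23 to 0.90. All 7 called genes were among the 23 dimmer ones, whose median change was 1.16. The dimmer class includes genes far above the filter level, such as Psmb5 with a mean of 10.42. The shares of all genes called on either side of this level were not computed. The split is therefore not a result about proteasome genes in particular.

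The comparison of 14w-WD with CHOW sets mice fed the western diet for 14 weeks against mice never fed it. None of the 33 members passed in limma (0 called), beside 0.00839% of all genes that rose, which was 1 gene. At an unadjusted p under 0.05 stood 6 members (18.2%), beside 15.9% of all genes. The median change was 0.25 over members and 0.16 over all genes. Above 0 lay 29 members, beside 65.6% of all genes, and below it 4, beside 34.4%. Under quantile normalization 22 members lay above 0, and the medians were 0.10 over members and 0.004 over all genes. The share of all genes above 0 was not computed under that normalization. The members with the smallest p were Psmd10, Psmc6 and Psma7, for which every 14w-WD array lay above every CHOW array. No overlap with 14w-WD higher occurred for these 3 members (9.09%), beside 3.09% of all genes.

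Psmd10 had 7.72, 7.29, 7.17, 7.26 and 7.64 in 14w-WD, against 6.44, 5.69, 5.89, 7.02 and 5.81 in CHOW, a change of 1.25 (SE 0.27, adjusted p = 0.0956). CHOW replicate 4 came nearest to the 14w-WD arrays. Psmc6 had 9.18, 8.58, 8.92, 8.65 and 8.62 in 14w-WD, against 7.38, 7.03, 7.19, 7.99 and 7.82 in CHOW, a change of 1.31 (SE 0.36, adjusted p = 0.132). Psma7 had 8.77, 8.77, 8.65, 8.61 and 8.61 in 14w-WD, against 8.60, 7.79, 7.27, 7.54 and 7.81 in CHOW, a change of 0.88 (SE 0.35, adjusted p = 0.246), and CHOW replicate 1 all but reached the lowest 14w-WD array. With only these 2 groups fitted, Psmd10 and Psmc6 passed, as they did without 2w-WD replicate 1, and with array weights 9 members rose and 1 fell. Over all genes 0.839% rose with only the 2 groups fitted and 1.39% without that array, and with array weights 14.1% rose and 4.68% fell. The catalytic genes Psmb5 and Psmb6 stood at 0.13 (SE 0.30) and 0.01 (SE 0.21).

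The comparison of 2w-WD with CHOW sets brief feeding of the western diet against none. In limma 0 of 33 members passed, beside 0.0% of all genes in each direction. Unadjusted p-values under 0.05 numbered 4 of 33, or 12.1%, beside 9.76% of all genes, and no other setting gave a call. The median change was -0.44 over members and -0.10 over all genes. Below 0 lay 29 members (87.9%), beside 61.2% of all genes, and above 0 lay 4, beside 38.8%. Because the 3 comparisons share arrays, a low 2w-WD level enters both this one and the one against 14w-WD.

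The smallest p-values belonged to Psmb5, Psmb6 and Psmd2. Psmb5 had 10.38, 9.48, 10.08, 8.73 and 10.24 in 2w-WD, against 10.73, 10.93, 10.54, 10.81 and 10.38 in CHOW, a change of -0.89 (SE 0.30, adjusted p = 0.480). Only 2w-WD replicate 1 touched the CHOW range. Psmb6 had 12.04, 11.50, 12.22, 11.04 and 12.004 in 2w-WD, against 12.48, 12.51, 12.13, 12.30 and 12.02 in CHOW, a change of -0.52 (SE 0.21, adjusted p = 0.492). Psmd2 had 10.10, 8.20, 8.34, 7.53 and 8.63 in 2w-WD, against 10.92, 10.17, 9.79, 10.03 and 7.82 in CHOW, where replicate 5 lay among the low 2w-WD arrays. Its change was -1.18 (SE 0.51, adjusted p = 0.507). CHOW spread widely for 2 other named members: Psmd1 had 7.70, 7.31, 7.05, 8.09 and 6.47, and Psmd9 had 8.79, 7.20, 6.30, 7.55 and 6.20.

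By array, the median difference of the 33 members from their own means ran from -0.19 to 0.31 in CHOW, from -0.74 to 0.13 in 2w-WD and from 0.01 to 0.50 in 14w-WD. Replicate 4 of 2w-WD held the lowest of all 15 levels for 14 of the 33 members, and replicate 1 was the only 2w-WD array with a median above 0. After the group means were removed, the mean correlation between pairs of members over the 15 arrays was 0.23, beside 0.06 over all pairs of tested genes. The closest pair was Psmb5 and Psmb6 (r = 0.94), and the most opposed was Psma4 and Psmb1 (r = -0.78). These correlations are a description, since all genes share the arrays and their brightness.

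**Figure D5:**
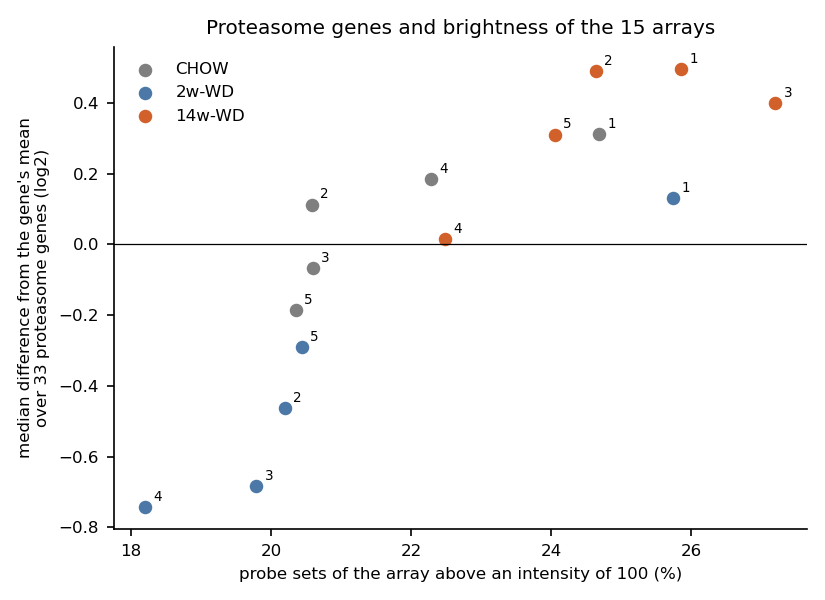
Median difference of the 33 tested proteasome genes from their means (vertical axis, log2 units) against the percentage of probe sets whose intensity exceeded 100 (horizontal axis), with 1 point for each of the 15 arrays, numbered by replicate. CHOW arrays lie between 20.4% and 24.7%, 2w-WD arrays between 18.2% and 25.7%, and 14w-WD arrays between 22.5% and 27.2%. Arrays with more bright probe sets tend to lie higher.

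The brightness of the whole array moved with the members. Probe sets brighter than 100 averaged 21.7% of all on CHOW arrays (SD 1.84), 20.9% on 2w-WD arrays (SD 2.86) and 24.8% on 14w-WD arrays (SD 1.79, n = 5 each). With that percentage as a covariate, unadjusted p-values under 0.05 in 14w-WD against 2w-WD numbered 5 of 33 members and 934 of 11925 genes. The median change in that fit was 0.28 over members and 0.04 over all genes.

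Other cell types captured with the foam cells were followed by lists of markers. Macrophage markers were bright in all groups: Csf1r, the receptor gene that marks macrophages, averaged 14.13 on CHOW arrays, 14.12 on 2w-WD arrays and 14.08 on 14w-WD arrays. In 14w-WD against 2w-WD Csf1r had a change of -0.04, Adgre1 0.14, Lyz2 0.32 (limma, adjusted p = 0.0504) and Cd68 0.69 (adjusted p = 0.156), all short of the threshold, and the median over the tested macrophage markers was 0.32. The log2 of the summed intensity of all 12 macrophage markers ran from 16.47 to 16.68 in 14w-WD and from 16.20 to 16.54 in 2w-WD, and 1 of 11 tested rose. For the 15 heart muscle markers it ran from 14.86 to 16.68 in 14w-WD and from 15.93 to 17.00 in 2w-WD, with 0 of 15 called, and in CHOW from 11.39 to 16.53. Their median change was -0.65. Of 7 fibroblast markers, summing to between 15.26 and 15.69 in 14w-WD and between 14.92 and 15.36 in 2w-WD, 2 rose, and the median change was 0.47. Of the measured smooth muscle (6 of 8 tested), endothelial (3 of 8), T cell (3 of 5), B cell (2 of 3) and neutrophil markers (3 of 5), 0 were called. The neutrophil markers nevertheless stood apart on 2w-WD replicates 3 and 5, with mean levels of 10.24 and 11.08, while the other 13 arrays lay between 7.69 and 9.69. Without replicate 3 of 2w-WD 5 proteasome genes were called, and without replicate 5 it was 6, beside 5.69% and 7.11% of all genes that rose. The median change of the neutrophil markers was -0.66. Itgam of the macrophage list and Pecam1, Kdr, Tek, Tie1 and Erg of the endothelial list lay below the filter level. With the mean of the heart muscle markers added to the model, also chosen after seeing the data, 9 proteasome genes were called, with a median change of 0.90. In that fit 9.99% of all genes rose, and their median change was 0.25. The mean of the heart muscle markers was 10.79 on 2w-WD arrays (SD 1.25) and 10.15 on 14w-WD arrays (SD 0.96). The part of the heart muscle, macrophage, fibroblast and neutrophil markers in the result was not tested.

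Genes that work with the proteasome were followed as a list of 55 names, of which 42 matched a measured gene and 40 were tested. In 14w-WD against 2w-WD 8 of the 40 rose and 0 fell, beside 10.1% and 1.15% of all genes, with a median change of 0.65, beside 0.23. No overlap occurred for 5 of the 40 with 14w-WD higher and for 1, Ubxn4, with 14w-WD lower, beside 7.06% and 1.57% of all genes. Ubxn4 had a change of -0.43 (SE 0.21, limma adjusted p = 0.179). In 14w-WD against CHOW and in 2w-WD against CHOW 0 passed, 9 and 2 of the 40 had an unadjusted p under 0.05 (beside 15.9% and 9.76% of all genes), and the medians were 0.41 and -0.20. The immunoproteasome genes, whose products replace catalytic subunits after interferon, included 2 of the 8. Psmb8, which takes the place of Psmb5, had 8.87, 8.54, 8.55, 6.43 and 8.11 in 14w-WD, against 7.51, 5.63, 6.16, 4.69 and 6.00 in 2w-WD (change 2.10, SE 0.60, adjusted p = 0.0369). Psmb10, which takes the place of Psmb7, changed by 1.72 (SE 0.44, adjusted p = 0.0260). For both, 14w-WD replicate 4 lay within the 2w-WD range.

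Of the other 6, Uba6, Uchl5, Vcp and Ubqln2 act before or beside the proteasome, and Mafg and Ngly1 belong to transcriptional control. Uba6, an enzyme that activates ubiquitin, had 8.42, 8.02, 8.82, 9.74 and 9.38 in 14w-WD, against 7.95, 6.86, 7.09, 6.63 and 7.34 in 2w-WD, without overlap (change 1.70, SE 0.43, adjusted p = 0.0242). Uchl5, a deubiquitinase bound to the proteasome, changed by 1.32 (SE 0.31, adjusted p = 0.0209), and its groups did not overlap either. Vcp, the ATPase that pulls ubiquitin-tagged proteins out of complexes, changed by 1.65 (SE 0.43, adjusted p = 0.0267), and Ubqln2, which shuttles such proteins to the proteasome, by 1.11 (SE 0.30, adjusted p = 0.0316).

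Among genes of transcriptional control, Mafg, a small Maf partner of the Nfe2l1 and Nfe2l2 factors, rose by 1.31 (SE 0.33, adjusted p = 0.0240). So did Ngly1, the glycanase that processes the Nfe2l1 protein, by 1.49 (SE 0.42, adjusted p = 0.0361). Nfe2l1 itself had a change of 1.24 and did not pass (adjusted p = 0.0960), and Nfe2l2 had 0.70 (adjusted p = 0.156). Both named factors of the Nfe2l family were looked up after the list's values were seen. In the 3 groups of the list without a called gene, the members with the smallest p were the following. Of the activators and the inhibitor, Psme1 and Psme4, which open the core particle, had changes of 0.83 (adjusted p = 0.0617) and 1.11 (adjusted p = 0.0984), and the inhibitor gene Psmf1 had -0.56 (adjusted p = 0.353). The assembly factors Pomp, Psmg1 and Psmg3, which help the core particle to form, had changes of 1.07 (adjusted p = 0.0712), 0.79 (adjusted p = 0.0920) and 1.09 (adjusted p = 0.215). Of the stress partners, Sqstm1, which carries ubiquitin-tagged cargo to autophagy, had 0.74 (adjusted p = 0.140), and the chaperone partners Dnajb1 and Bag1 had 0.37 and 0.29. All p-values here are limma's.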

How the data were processed

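The deposited table holds 1 linear intensity per probe set and array (45037 probe sets). Summarisation, background correction and normalization by the authors are not given in the sources used here. RNA was extracted, amplified and labelled with biotin per the labels' protocols. Array medians lay between 31.7 and 38.2. GEO's array annotation named 1 gene for 34945 probe sets, several for 932 and none for 9160.

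Computed here were log2(intensity + 16), 1 probe set per gene (the highest mean) and limma 3.58.1 in R 4.3.3 (lmFit, eBayes with an intensity trend) on all 15 arrays, two-sided, with Benjamini-Hochberg adjustment over 11925 genes. The fit was also run on simulated data, and no result here draws on that run. A gene that did not pass is not thereby shown to be unchanged. Groups and replicate numbers came from sample titles. Members and lists were chosen with earlier results of these data known. Values on every array are given for Psmb5, Psmb6, Psmb7, every called member, and the 3 members of smallest p where none was called. Of the proteasome-related list, called genes and otherwise those of smallest p are named. Values of further probe sets were chosen after they were seen. No label says what a shared replicate number means, and arrays were not treated as paired. Correlations of deviations between same-numbered arrays ran from -0.17 to 0.48, which does not settle whether they were. Alternatives were other scalings, pseudocounts, filters, probe set choices, array weights, covariates, a replicate block and single arrays left out.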

Additional observations from a re-analysis of the deposited data

How the results depend on the processing

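In 14w-WD against 2w-WD the count of called proteasome genes, 7, was 4 under quantile normalization, 16 with array weights, 13 with the replicate block and 0 with the share of bright probe sets as a covariate, and 1 to 16 with single arrays left out. The share of all genes that rose moved with it, to 5.75%, 25.9%, 15.7% and 0.0% under these settings, and to between 1.34% and 24.8% with single arrays left out. The median change, 0.86, was 0.55 under quantile normalization, 0.28 with that covariate and 1.09 with probe sets free of an x or s suffix. In 14w-WD against CHOW the count of 0 became 10 with array weights (14.1% of all genes rose and 4.68% fell), 2 with only the 2 groups fitted (0.839% and 0.184%) and 0 to 2 with single arrays left out, and the median change of 0.25 became -0.029 with the covariate. The cause was not tested. In 2w-WD against CHOW 0 genes were called under all 28 alternatives, and the median ran from -0.59 to -0.25. All 7 called genes kept their direction under the 28 alternatives. Psmd10 lost its call in 1 of them, Psmc6 in 2, Psma7 in 5, Psmd1 in 6, Psmd9 in 7, Psmb5 in 9 and Psmd2 in 16, and the adjusted p of Psmd10 ran from 0.000667 to 0.333. Whether the replicate block matches the design is unknown, as no label says what a shared number means. The best match of an array in another group had its own number for 6 of 15. Dim probe sets near the filter level and the 5 arrays a group limit precision.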
